A study of Mus musculus with 4 samples.

Results

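The immunoglobulin kappa region was taken as chromosome 6 from 67.0 to 71.5 Mb of the mouse genome build mm8. It was set by position, with earlier results of these data known, and comprised 4500 windows of 1 kb, out of 2462430 such windows on the autosomes. Reads of a chromatin immunoprecipitation against total histone H3 were counted in it in 4 libraries, 1 library per group. The groups were pro-B cells of the line 38B9, which was transformed with Abelson virus, myotubes of the line C2C12, V6.5 embryonic stem (ES) cells kept in SB431542, and untreated V6.5 ES cells. SB431542, an inhibitor of the TGF-beta type I receptor kinases, was given at 10 uM for 24 h before crosslinking. C2C12 is a myoblast line, and its cells had formed myotubes over 48 h in low horse serum. The V6.5 cells were of C57BL/6-129 background and had been passaged off their feeder cells, while the labels give no strain for 38B9 or C2C12. All 4 immunoprecipitations used the same antibody lot. Each group stood for 1 line and 1 library. Per the file headers, the library of SB431542-treated cells was sequenced in a run of its own, so its treatment and its run cannot be told apart. H3 reads carry no expression values, so the cell types were not checked against marker genes.

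The kappa light chain locus is built from a long array of variable (V) gene segments, a short cluster of joining (J) segments and a constant exon. A B lymphocyte makes a kappa gene by joining 1 V segment to 1 J segment, which deletes or inverts the DNA between them. Heavy chain segments on chromosome 12 are joined first, at the pro-B stage, and kappa joining follows mainly at the pre-B stage. Many V segments are near copies of each other, so that short reads from them often fit several places. In the gene order of RefSeq, which is of build GRCm38.p6 and was used for order alone, chromosome 6 carries 162 Igkv entries, of which 102 are V segments and 60 V segment pseudogenes. They are followed towards the distal side by 5 Igkj entries and Igkc, the constant exon. Since the reads lie on mm8, no gene was placed on any window below.

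The libraries were alike in depth, with 13430107 (pro-B), 13102915 (myotube), 13852985 (SB431542) and 13494981 (untreated ES) distinct positions of reads with 1 reported place. A position is the strand and leftmost base of a read, counted once however often it was sequenced. Counts were scaled to each library's distinct positions on autosomes, and a ratio is a ratio of scaled counts. Intervals are exact 95% conditional binomial intervals. They take in counting error at most, because amplified reads that carry no molecular identifier need not be separate molecules. Each group had a single library, so differences between groups were neither tested nor checked by replicates. No input library was used here, so DNA copy number and H3 recovered per copy cannot be told apart in any ratio.

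The first question was whether the 4 libraries carried different amounts of H3 reads over the kappa region. Pro-B cells had more reads there than the 3 other libraries, which were close to each other. The region held 20344 distinct positions in pro-B cells, 14845 in myotubes, 16385 in SB431542-treated ES cells and 15551 in untreated ES cells. These were 0.156%, 0.119%, 0.122% and 0.118% of the autosomal positions of the same libraries. Pro-B cells were at 1.32 times the untreated ES level (interval 1.293 to 1.348) and at 1.31 times the myotube level (1.281 to 1.337). Myotubes were at 1.01 times the untreated ES level (0.986 to 1.03) and SB431542-treated ES cells at 1.03 times (1.005 to 1.05).

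The chromosome 6 flanks of 5 Mb on both sides gave the level of the surrounding chromosome. There the pro-B library was lower than the others. The flanks together held 46649 positions in pro-B cells, 52726 in myotubes, 54892 in SB431542-treated ES cells and 52704 in untreated ES cells. Pro-B cells were at 0.893 times untreated ES cells over both flanks (0.882 to 0.904), at 0.869 times in the proximal and 0.917 times in the distal one. The other libraries were slightly above untreated ES cells, myotubes at 1.06 times (1.044 to 1.07) and SB431542-treated cells at 1.02 times (1.003 to 1.028). Set against its own flanks, the region was thus at 1.48 times the untreated ES level in pro-B cells (1.442 to 1.515), at 0.954 times in myotubes (0.930 to 0.979) and at 1.01 times in SB431542-treated cells (0.987 to 1.037). The myotube value lay above 1, at 1.075 times, when flanks of 2 Mb took the place of 5 Mb, so that it has no settled direction.

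The region as a whole was not among the most extreme stretches of its size. Of 4768 overlapping autosomal stretches of 4.5 Mb, in steps of 0.5 Mb, 139 (2.92%) had a higher ratio of pro-B to untreated ES cells. Of these 137 lay outside the region, on 13 chromosomes, and the highest was at 1.68 times. Chromosome 6 without the region was at 0.975 times (0.972 to 0.978).

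**Figure D1:**
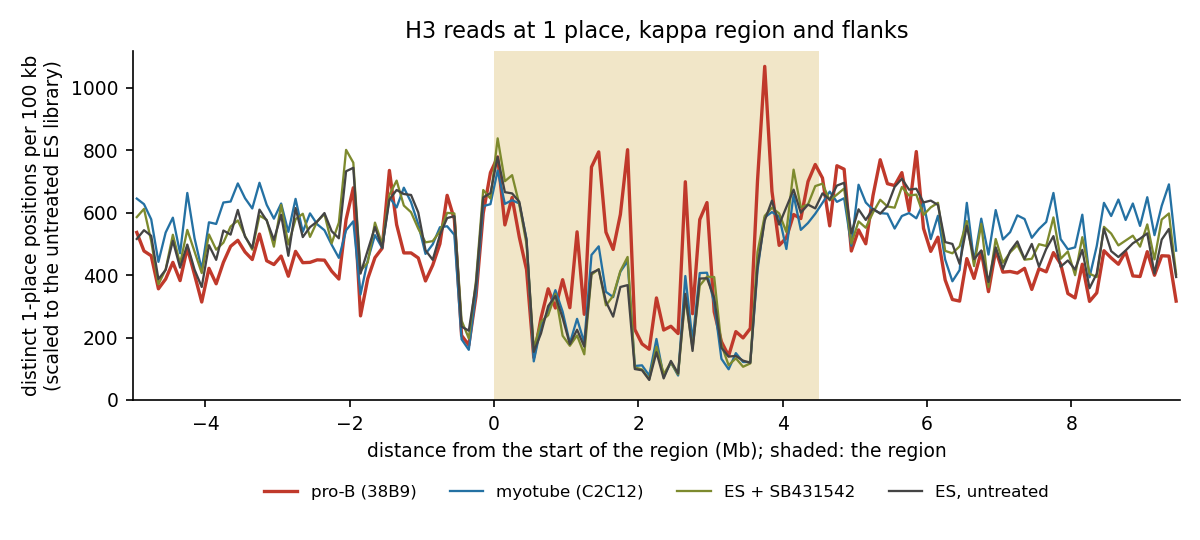
Distinct positions of reads with 1 place per 100 kb, scaled to the untreated ES library, against the distance from the start of the kappa region in Mb, for the 4 libraries (lines); the shaded band is the region of 4.5 Mb and the rest are its flanks. The pro-B line runs mostly below the others in the flanks and above them from 0.9 to 3 Mb and from 3.3 to 3.8 Mb, and all 4 lines are low in parts of the band.

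The pro-B excess was not spread evenly over the region. It lay in 100 kb bins between 67900001 and 70800000, and the 9 bins of the region before and the 7 after that stretch ranged from 0.816 to 1.23 times the untreated ES level. A bin was called higher or lower when its log2 ratio reached 0.5 in size, provided that the 4 libraries averaged 100 reads or more in it. Of the 45 bins 44 met that minimum, and pro-B cells were higher than untreated ES cells in 25 of them. The average takes in the pro-B count, and the bins 69300001 to 69400000 and 69500001 to 69600000 met the minimum only through it. Over all autosomes 7.94% of 23365 bins were higher by the same rule. No bin of the region was lower, where 8.2% of the autosomal bins were, and in the flanks 0 of 100 bins were higher and 2 lower. The median ratio over the 44 bins was 1.57, against 0.875 over the flank bins and 0.941 over all autosomal bins.

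All 25 bins fell into 2 runs. The first run went from 67900001 to 70000000 and was at 1.86 times the untreated ES level (1.80 to 1.929, 9125 against 4941 positions). Its 21 bins ranged from 1.47 to 3.25 times, and the interval of each of them lay above 1. The single bin of this run that was not called, 69100001 to 69200000, had too few reads for the rule but stood at 2.54 times (161 against 64 positions). The second run, of 5 bins, went from 70300001 to 70800000 and was at 1.74 times (1.628 to 1.861, 2396 against 1389 positions). Bins just outside the stretch were at 0.885 times (67800001 to 67900000) and 1.05 times (70800001 to 70900000). The stretch from 67900001 to 70800000 is called the high domain below. Its bounds were drawn from these ratios, so the values inside it describe it and test nothing.

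The 5 bins with the highest ratio of pro-B to untreated ES cells all lay in the first run. The highest was 69300001 to 69400000, with 222 positions in pro-B cells, 70 in myotubes, 85 in SB431542-treated ES cells and 69 in untreated ES cells. Its ratio of 3.25 (2.467 to 4.318) ranked 8th of the 23365 autosomal bins. The bin met the minimum of 100 reads only through its pro-B count, so the rank describes it and tests nothing. The pro-B count stood apart from 3 counts that were close to each other, and 58.4% of the untreated ES lines of this bin were of reads with 2 places. Next came 69500001 to 69600000, with 211 positions in pro-B cells against 74, 84 and 85 in the myotube, SB431542 and untreated ES libraries, at 2.5 times (1.938 to 3.261). The bin from 68100001 to 68200000 had 534 positions in pro-B cells against 246, 212 and 225, at 2.40 times (2.045 to 2.811). In both bins the pro-B count again exceeded all the others. The fourth bin, 68900001 to 69000000, was at 2.28 times (1.794 to 2.922). The fifth, 68800001 to 68900000, was at 2.18 times (1.924 to 2.473). In all, 7 bins reached 2 times among the 44. The lowest of these, 69600001 to 69700000 at 2.06 times, ranked 121st of the 23365 autosomal bins.

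The 5 bins with the lowest ratio were spread over both ends of the region and 1 place within it. The lowest was 67400001 to 67500000, with 414 positions in pro-B cells, 488 in myotubes, 512 in SB431542-treated and 512 in untreated ES cells, at 0.816 times untreated ES (0.715 to 0.931). Close to it were 67300001 to 67400000 (0.822 times) and 67100001 to 67200000 (0.842 times), where the other libraries were near each other. In 71000001 to 71100000 pro-B cells (0.841 times) and myotubes (0.783 times) were both below untreated ES cells. The fifth was 70000001 to 70100000, at 0.864 times with an interval that included 1 (0.734 to 1.017). Such values were usual around the region, where the 100 flank bins ranged from 0.644 to 1.29 times.

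**Figure D2:**
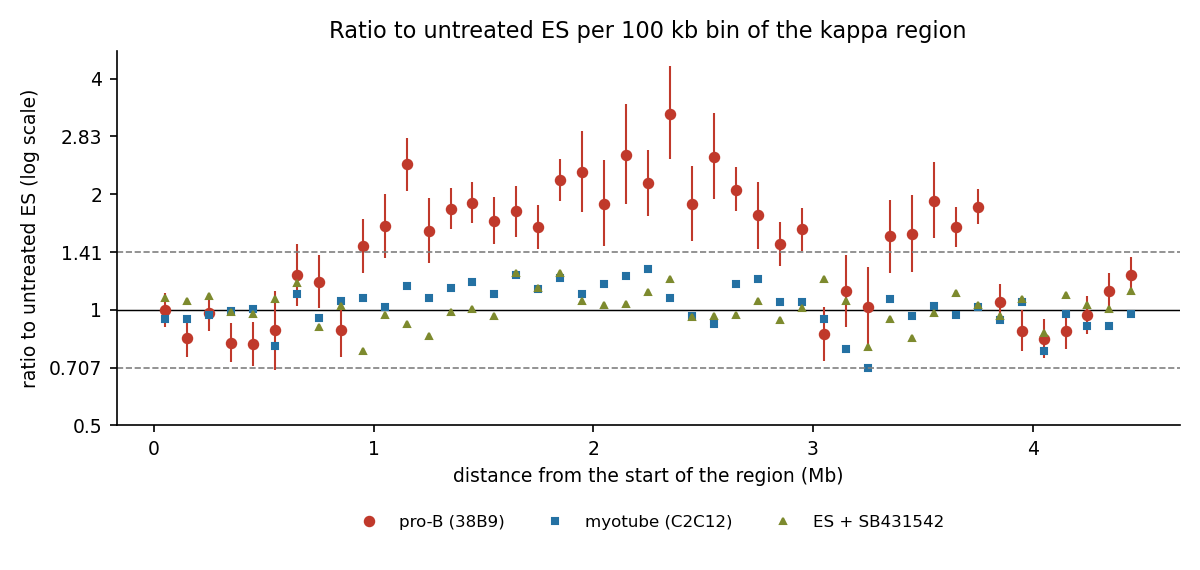
Ratio of scaled 1-place positions to untreated ES cells (log scale) per 100 kb bin, against the distance from the start of the kappa region in Mb, for pro-B cells (circles, with 95% counting intervals), myotubes (squares) and SB431542-treated ES cells (triangles); dashed lines mark the rule of size. Pro-B bins lie above the upper dashed line from 0.9 to 3 Mb and from 3.3 to 3.8 Mb, with the highest at 3.25 times, while the other libraries stay near 1.

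Myotubes and SB431542-treated ES cells had no comparable domain. Myotubes had 0 bins higher than untreated ES cells by the rule and 1 lower, where 1.91% and 3.24% of the autosomal bins were higher and lower. The lower bin was 70200001 to 70300000, at 0.707 times (0.538 to 0.926, 93 against 139 positions). In bins of 50 kb it could not be called, since the minimum of 100 reads was kept and neither part of it reached that. In the first run myotubes were nevertheless a little above untreated ES cells, at 1.13 times (1.083 to 1.171, 5267 against 4941 positions), with 19 of 21 bins above 1. In the second run they were at 1.00 times (0.930 to 1.082). SB431542-treated cells had 0 bins called, where 0.00428% of the autosomal bins were higher and 0% lower. They were at 1.02 times in both runs, with intervals that included 1.

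Pro-B cells were also set against myotubes, the other line that is not an ES cell. Of the 44 bins, 25 were higher in pro-B cells and 0 lower, where 9.66% and 9.3% of the autosomal bins were. They were not quite the same bins as against untreated ES cells. The bin 67900001 to 68000000, at 1.36 times myotubes, was not called, while 70200001 to 70300000, which lies between the runs, was called at 1.44 times. The high domain held 12126 positions in pro-B cells, 7097 in myotubes, 7326 in SB431542-treated ES cells and 6963 in untreated ES cells. Pro-B cells were at 1.63 times myotubes there (1.585 to 1.681) and at 1.76 times untreated ES cells (1.706 to 1.81). The 3 other libraries lay within 1.08 times of each other, and pro-B cells above all of them.

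Both ends of the high domain were followed in steps of 20 kb. The distal end was abrupt. The step from 70780001 to 70800000 had 301 positions in pro-B cells, 117 in myotubes, 133 in SB431542-treated and 125 in untreated ES cells, at 2.43 times untreated ES (1.966 to 3.018). The next step, 70800001 to 70820000, was at 1.57 times (1.253 to 1.965), and the one after it, 70820001 to 70840000, at 0.943 times (0.724 to 1.227, 114 against 122 positions). The ratio thus passed to the ES level within about 1 step. The proximal end was less sharp. Outside the domain the step from 67780001 to 67800000 was at 2.48 times (1.189 to 5.532, 27 against 11 positions), and inside it that from 67960001 to 67980000 at 1.04 times (0.638 to 1.688). The steps from 67820001 to 67860000 were at 0.685 and 0.644 times, the next ones up to 67900000 at 1.20 and 1.25 times, and that from 67900001 to 67920000 at 1.93 times (1.245 to 3.031, 63 against 33 positions). Every one of the 19 steps from 68020001 to 68400000 was above 1, from 1.37 to 3.20 times, some of them from few reads (the highest from 19 against 6 positions).

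Reads that fit 2 places are listed apart in the deposited files, 1 line per place, and they sample the near copies that 1-place reads miss. They showed a pro-B excess in the same stretch and, from few lines, past its distal end. From 70800001 to the end of the region pro-B cells were at 1.33 times untreated ES cells (1.076 to 1.638, 213 against 162 lines). The region held 12933 such lines in pro-B cells, 8090 in myotubes, 9174 in SB431542-treated ES cells and 8329 in untreated ES cells. Pro-B cells were at 1.57 times untreated ES cells (1.524 to 1.611) and at 1.53 times myotubes (1.485 to 1.57). Myotubes were at 1.03 times untreated ES cells (0.995 to 1.058) and SB431542-treated cells at 1.07 times (1.042 to 1.106). In the flanks the pro-B value was 0.890 times (0.841 to 0.942), from 2309 against 2617 lines. A read with both of its places in the same area gives 2 lines there, so intervals of 2-place lines can be narrower than counting error. A line may also belong to the other place of its read.

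Lines of 2-place reads made up 48.5% of all lines in the high domain in untreated ES cells, against 4.62% in the flanks. Within the domain, pro-B cells were at 2.02 times untreated ES cells in the first run (1.947 to 2.104, 7745 against 3861 lines) and at 1.46 times in the second (1.357 to 1.569, 1815 against 1255 lines). All 21 bins of the first run were above 1, from 1.23 to 2.61 times, and all 5 of the second, from 1.24 to 1.81 times. The highest was 68900001 to 69000000 with 448 lines in pro-B cells, 196 in myotubes, 176 in SB431542-treated ES cells and 173 in untreated ES cells. Across the 45 bins of the region, log2 ratios of the 2 kinds of read correlated with Pearson's r = 0.770 and Spearman's rho = 0.828. The bins share libraries and neighbours, so these values describe the profile only.

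Bins rich and poor in near copies both carried the excess. In the 18 bins of the domain where at least 50% of the untreated ES lines were of 2-place reads, pro-B cells were at 1.70 times untreated ES cells in 1-place positions (1.620 to 1.783). In the 11 other bins of the domain they were at 1.79 times (1.727 to 1.863). In 2-place lines the rich bins were lower than the others, at 1.66 times (1.604 to 1.714) against 1.98 times (1.834 to 2.127). The rich bins include the 3 bins between the runs, which were at 0.964 times in 1-place positions and 1.15 times in 2-place lines. The order of rich and poor bins was not computed without them. The domain was drawn from 1-place ratios, so these values describe it and test nothing. Outside the domain, the 4 bins of the region and its flanks with the largest share of 2-place lines had ratios nearer to 1. The richest of them, 67600001 to 67700000 with 72.5% in untreated ES cells, had 424 lines in pro-B cells, 464 in myotubes, 569 in SB431542-treated and 562 in untreated ES cells, at 0.761 times untreated ES (0.670 to 0.865). In 1-place positions the same bin was at 1.23 times (1.024 to 1.483), so that the 2 kinds of read differed there. For 2-place lines the other bins were at 0.980 times (67500001 to 67600000), 1.17 times (67700001 to 67800000) and 0.992 times (66600001 to 66700000, in the proximal flank).

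**Figure D3:**
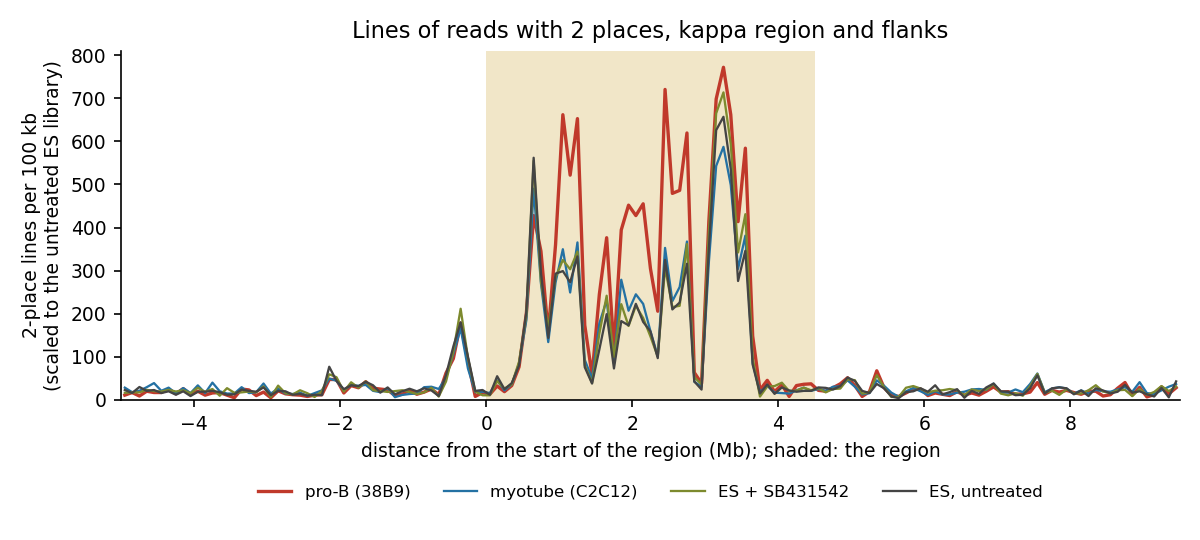
Lines of reads with 2 places per 100 kb, scaled to the untreated ES library, against the distance from the start of the kappa region in Mb, for the 4 libraries (lines); the shaded band is the region. Between 0.9 and 3 Mb the pro-B line stands at up to 2.61 times the untreated ES line, while between 3 and 3.3 Mb it stands at 1.15 times.

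Between the runs lay 3 bins, 70000001 to 70300000, in which pro-B cells were close to untreated ES cells. They held 605 positions in pro-B cells, 511 in myotubes, 699 in SB431542-treated ES cells and 633 in untreated ES cells. The ratio was 0.964 for pro-B cells (0.861 to 1.08), 0.853 for myotubes (0.758 to 0.960) and 1.08 for SB431542-treated cells (0.966 to 1.201). Against myotubes pro-B cells were at 1.13 times in 1-place positions (1.004 to 1.275). By bin these ratios to myotubes were 0.913, 1.41 and 1.44, so the gap between the runs was not the same under both references. In 2-place lines pro-B cells were at 1.15 times untreated ES cells here (1.079 to 1.233, 1868 against 1634 lines) and at 1.30 times myotubes (1.211 to 1.394). Between 51.8% and 82.5% of the untreated ES lines of these bins were of 2-place reads.

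A stretch nearly without 1-place reads in pro-B cells reached across the start of these bins. The longest run of bases without 1-place reads in 1 library, with at least 10 positions in every other, was in pro-B cells, from 69973538 to 69988499 (14962 bases), where myotubes had 42 positions, SB431542-treated ES cells 47 and untreated ES cells 39. The second longest followed at once in the same library, from 69988897 to 70000560 (11664 bases), with 30, 28 and 34 positions in the other libraries. Joined with a further one that ended at 70003870 they spanned 30.3 kb, with 5 positions in pro-B cells, 96 in myotubes, 98 in SB431542-treated ES cells and 94 in untreated ES cells. The ratio of pro-B to untreated ES cells was 0.0537 (0.0170 to 0.130), and 2-place lines were few in all libraries there, 9 in pro-B cells and 11, 17 and 6 in the others. The runs were chosen for having no 1-place pro-B reads, so this ratio describes the stretch and tests nothing.

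The low counts went on, less completely, beyond it. The next run without 1-place pro-B reads ended at 70030055, and from 69973538 to there, 56.5 kb in all, pro-B cells had 54 positions, myotubes 219, SB431542-treated ES cells 221 and untreated ES cells 220, a ratio of 0.248 to untreated ES (0.180 to 0.335). Both ends of this stretch were set by runs without 1-place pro-B reads, so its ratio too only describes it. Just before this stretch pro-B cells were high. In the 50 kb from 69923538 to 69973537 they had 412 positions, against 173 in myotubes, 194 in SB431542-treated ES cells and 172 in untreated ES cells, at 2.42 times untreated ES (2.018 to 2.905). The last window of 1 kb wholly before the stretch still held 21 positions in pro-B cells. Low counts reached a little past 70030055, since the step from 70020001 to 70040000 had 10 positions in pro-B cells, 51 in myotubes, 86 in SB431542-treated and 81 in untreated ES cells. In the 50 kb from 70030056 pro-B cells had 102 positions, myotubes 75, SB431542-treated 139 and untreated ES cells 94, at 1.095 times untreated ES (0.819 to 1.465). In the steps of 20 kb from 70040001 to 70140000 pro-B cells were at 1.42 to 2.25 times untreated ES cells. The intervals of those starting at 70040001 (0.902 to 2.651) and 70100001 (0.927 to 2.203) included 1. In these steps pro-B cells had 38, 58, 128, 55 and 56 positions, and SB431542-treated cells 42, 44, 119, 49 and 49. What sets these low counts was not tested, and 38B9 has no strain label that could be held against mm8. The next longest such run in the region was 7344 bases in myotubes, from 67592521 to 67599864, where the other libraries had 10 (pro-B), 18 (SB431542) and 11 (untreated ES) positions. Untreated ES cells had none by this rule.

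**Figure D4:**
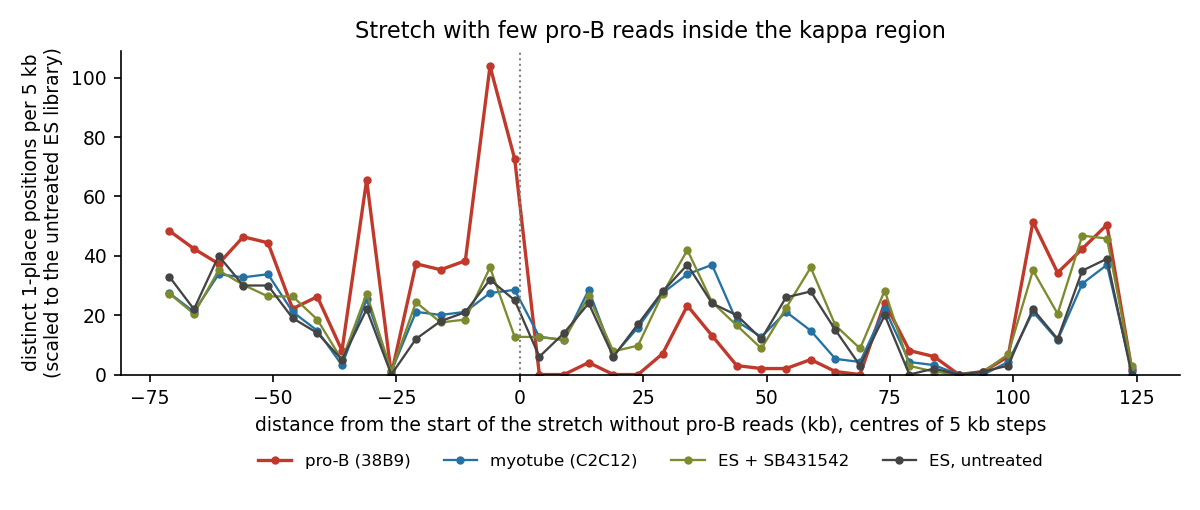
Distinct 1-place positions per 5 kb, scaled to the untreated ES library, against the distance in kb from the first base of the stretch without 1-place pro-B reads (dotted line), for the 4 libraries (lines). Pro-B counts are the highest just left of the dotted line and at or near 0 for about 30.3 kb right of it, where the other libraries have reads.

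At the scale of 1 kb, the excess was spread over many windows with a modest surplus. Among windows with at least 10 reads over the 4 libraries, pro-B cells had the highest scaled count in 772 of 1228 (62.9%) in the high domain, in 323 of 1286 (25.1%) in the rest of the region, in 1470 of 8189 (18.0%) in the flanks and in 26.2% of the autosomal windows. In such windows of the domain the median was 7 positions in pro-B cells, 4 in myotubes, 5 in SB431542-treated ES cells and 4 in untreated ES cells. The limit of 10 reads takes in the pro-B count and was met by 42.3% of the domain's windows, against 81.9% in the flanks. Sparse windows of the domain thus passed more readily where pro-B counts were high, and the domain itself was drawn from pro-B ratios. These shares and medians describe the domain and test nothing. Windows with at least 20 positions were the rare tail: the region had 61 in pro-B cells, 0 in myotubes, 5 in SB431542-treated ES cells and 0 in untreated ES cells. The flanks, with 10000 windows, had 35, 1, 6 and 4 in the same libraries. In pro-B cells these were 1.36% of the region's windows and 0.35% of those of the flanks, and the autosomal share is not given here. Of the 61 windows, 45 lay in the high domain (1.55% of its windows), so the tail was not confined to it.

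A window was called higher in a library that had 20 or more positions in it and, after scaling, 3 or more times as many as the next library. By this rule 12 of the 4500 windows (0.267%) were higher in pro-B cells, where 0.171% of all autosomal windows were, and 6 of 10000 (0.06%) in the flanks. The count is small, and the region's share is above that of its flanks and near the autosomal one. The count was 22 windows without the SB431542 library and 23 when counts were scaled to the flanks, but the autosomal shares under these settings were not computed. The other libraries had 0 windows called, where 0.00495% (myotube), 0.00162% (SB431542) and 0.00106% (untreated ES) of the autosomal windows were. Of the 12 windows 11 lay in the high domain, and the other was the window right after its end. Together they held 292 positions in pro-B cells, 1.44% of the region's, against 68 in myotubes, 61 in SB431542-treated ES cells and 58 in untreated ES cells. Without them the region was still at 1.31 times untreated ES cells and the domain at 1.73 times.

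Among the windows called higher in pro-B cells, the one with the most pro-B positions lay right after the distal end of the domain. The one with the highest ratio lay in its first run. The window 70800001 to 70801000 had 36 positions in pro-B cells, 11 in myotubes, 6 in SB431542-treated ES cells and 4 in untreated ES cells. The window 68150001 to 68151000 had the highest ratio to the highest other library, 6.05, with 24 positions in pro-B cells against 3, 4 and 4. It was followed by 69972001 to 69973000 at 5.30, with 21 positions in pro-B cells against 3, 2 and 4, which lay next to the stretch without 1-place pro-B reads. In all 3 windows the other libraries stayed at 11 positions or fewer.

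The window 70754001 to 70755000 had 26 positions in pro-B cells, 6 in myotubes, 6 in SB431542-treated ES cells and 3 in untreated ES cells, a ratio of 4.14 to the highest other. The window 68981001 to 68982000 stood at 4.04 (20 positions in pro-B cells against 4, 2 and 5) and 69941001 to 69942000 at 3.97 (23 positions against 5, 6 and 5). The neighbouring windows 68813001 to 68814000 and 68814001 to 68815000 stood at 3.22 and 3.66, with 27 and 23 positions in pro-B cells. The remaining 2 named by the rule of the 10 highest ratios were 70665001 to 70666000 at 3.50 and 70794001 to 70795000 at 3.23. The lowest ratio inside the rule was 3.03 (68409001 to 68410000) and the highest outside it 2.98 (68304001 to 68305000, with 25 positions in pro-B cells against 8, 6 and 6), so that the limit cut through a continuous range.

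The 12 windows were chosen for high pro-B counts, so a peak at the window itself is fixed by the choice. The mean scaled count was 24.6 positions at the window, 17.4 in the kb before and 13.3 in the kb after it, and 7.90 at 2 kb after. On the proximal side pro-B counts stayed higher, at 11.3 positions 5 kb before and 11.1 positions 10 kb before the window, against 6.31 positions 10 kb after it. The other libraries were also higher 10 kb before than 10 kb after the window. Untreated ES cells had 6.08 against 2.67 positions, myotubes 6.16 against 3.87 and SB431542-treated ES cells 5.04 against 4.06. At the window itself untreated ES cells had 4.83, and they had between 2.67 and 6.08 in each kb up to 10 kb on either side. The plus strand held 137 of the 292 pro-B positions (46.9%), taken over all 12 windows. Of all positions of the region the plus strand held 49.9% in pro-B cells and 50.0% in untreated ES cells.

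**Figure D5:**
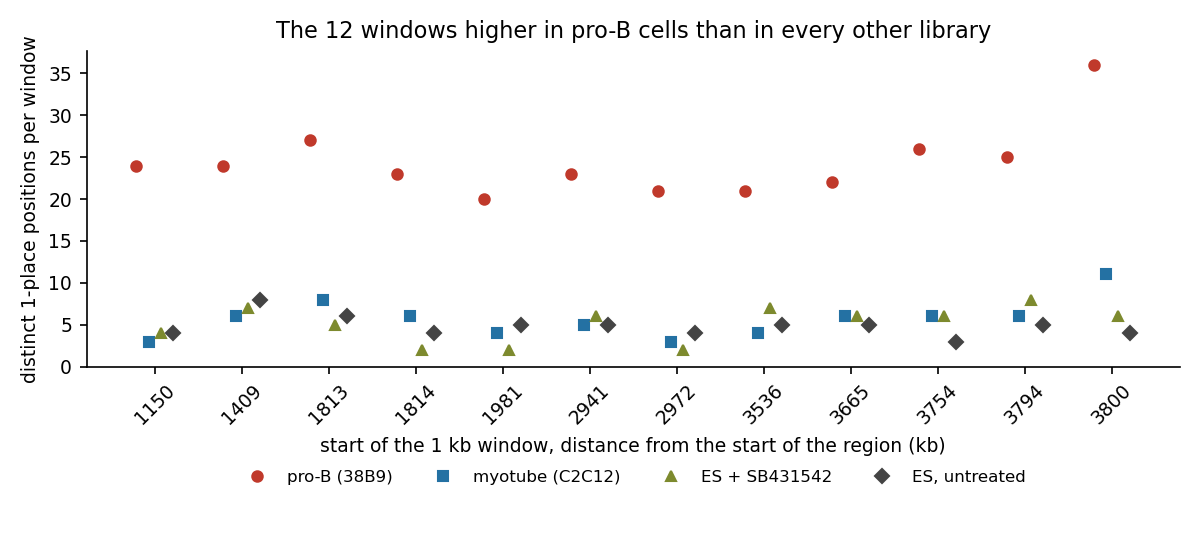
Distinct 1-place positions in each of the 12 windows of 1 kb that were higher in pro-B cells, for the 4 libraries (circles pro-B, squares myotubes, triangles SB431542-treated ES cells, diamonds untreated ES cells); windows are named by their start in kb from the start of the kappa region. Pro-B counts run from 20 to 36 and those of the other libraries from 2 to 11.

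The heavy chain region on distal chromosome 12 (114 to 117 Mb) carried a larger pro-B excess than the kappa region. It was at 2.22 times untreated ES cells in 1-place positions (2.163 to 2.273) and at 2.84 times in 2-place lines (2.762 to 2.918). The kappa region was at 1.32 times and 1.57 times, and its high domain, drawn from its own ratios, at 1.76 times and 1.71 times. By the same rule for windows, 125 of its 3000 windows (4.17%) were higher in pro-B cells. The share was 0.267% in the kappa region, 0.379% in its high domain and 0.171% over all autosomal windows. The intervals of the heavy chain ratios do not overlap those of the kappa region or its domain. They cover counting error at most, and the difference was not tested between cultures.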

How the data were processed

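H3 ChIP-seq reads of 4 libraries, 1 per group, were analysed. Per the file headers, the authors aligned reads with Bowtie to mm8, allowing 2 mismatches in a 36-base seed, a quality sum of 70 and no more than 2 places, and deposited 1 signed position per place and no other value. The aligner's version is not given in the sources used here. The section with 1 place and that with 2 places were told apart from their names and the options. Positions were read as counted from 0, because the smallest autosomal position was 3000000 and the chromosomes begin with an assembly gap of that length, and printed coordinates count from 1. Distinct positions with 1 place were counted in Python 3.11.15 with numpy 2.4.6 and scipy 1.17.1; lines with 2 places were kept whole. Bins with a mean under 100 reads entered no call. The calls and intervals were checked on simulated data. The region and the rules were chosen with earlier results of these data known. Named were the 5 highest and 5 lowest bins, the 10 windows with the highest pro-B ratio, and the longest stretches without 1-place reads. No gene was placed, as the annotation at hand is of GRCm38.p6, and no sequence is shown.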

Additional observations from a re-analysis of the deposited data

How the results depend on the processing

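Of 117 values recomputed under other settings, 77 stayed within the counting interval or, for counts, within 1.5 times, 39 moved and 1 crossed 1. A ratio was counted as crossing 1 only if its main interval excluded 1. Settings of the high domain, the other ES library, the position origin and the shifted reads were chosen after seeing the data. The cause of a moved value was not tested, except where a looser or stricter limit sets it. No paired analysis was possible because each group had 1 library.

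The region ratio of pro-B to untreated ES cells was 1.37 scaled to the median autosomal 1 Mb bin, 1.478 scaled to the flanks, 1.408 with 2-place lines added, 1.89 from 68 to 70 Mb and 1.285 with the SB431542 library as the ES library. Pro-B to myotube ratios under the first 4 of these were 1.36, 1.549, 1.39 and 1.67. Myotube to untreated ES ratios were 0.954 scaled to the flanks and 1.13 from 68 to 70 Mb. The first of these lay below 1, where the main value of 1.008 lay above it with an interval that included 1. Relative to the flanks, pro-B to untreated ES cells gave 1.42 with flanks of 2 Mb, 1.52 with the proximal and 1.44 with the distal flank alone. With flanks of 2 Mb the other values were 1.32 for pro-B to myotube and 1.038 for SB431542 to untreated ES cells. Myotube to untreated ES cells gave 1.075, the value counted as crossing 1.

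With a log2 limit of 1, 7 bins were called for pro-B against untreated ES cells, 4 against myotubes and 0 for myotubes against untreated ES cells. With 0.3, 6 bins were called for myotubes and 4 for SB431542-treated cells against untreated ES cells, and with bins of 50 kb 0 and 3. The minimum of 100 reads was kept for bins of 50 kb, so sparse parts of the region could not be called there. Ratios of 2-place lines, scaled to all autosomal 2-place lines, were 1.61 for pro-B and 1.034 for SB431542 against untreated ES cells. Scaled to those of the flanks, they were 1.76 for pro-B against untreated ES cells and 1.757 against myotubes. With 1 line per position and strand the SB431542 value was 1.042. The high domain was at 1.97 times untreated ES cells scaled to the flanks, 1.84 without the 3 bins between its runs and 1.886 from 68 to 70 Mb. Windows higher in pro-B cells numbered 39 at 2 times, 33 from 10 reads, 23 scaled to the flanks and 22 without the SB431542 library. From 10 reads, 2 windows were called in myotubes, 1 in SB431542-treated and 1 in untreated ES cells, and at 2 times 1 in SB431542-treated cells. Autosomal shares under these other settings of bins and windows were not computed, so the counts show only how they depend on the settings.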
